A study of Mus musculus with 20 samples.

Results

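Naive bone marrow-derived macrophages (BMDM) exposed to exosomes from high-glucose macrophages (BMDM-HG-exo) were compared with BMDM exposed to phosphate-buffered saline (PBS). The comparison took the 4 BMDM-HG-exo and the 4 PBS libraries, 8 of the 20 libraries of the mouse long RNA data. Members were the 14382 of 14456 listed genes whose normalized count averaged 10 or more over these 8 libraries. The question was which RNAs of recipient macrophages changed after contact with such exosomes. The recipient cells came from the bone marrow of wild-type male C57BL/6J mice aged 8 to 12 weeks (8 weeks in the culture protocol) and had been differentiated for 6 days with 25 ng/ml of M-CSF, the growth factor of macrophages. They received PBS or 2000000000 particles/ml of exosomes for 24 h. The exosomes, small vesicles that cells release, came from BMDM of the same kind kept for 24 h in 25 mM glucose. A further 4 libraries held BMDM given exosomes from macrophages in 5.5 mM glucose plus 19.5 mM mannitol, a sugar alcohol (BMDM-NG-exo). Another 8 libraries held BMDM that were themselves kept in these 2 media. Every group was thus a primary culture differentiated with M-CSF, with no genetic change and no stimulus such as lipopolysaccharide. The PBS cells received no BMDM exosomes. Whether M-CSF was present during the 24 h of exposure is not given in the sources used here. Each sample came from a separate exosome preparation, and whether the recipient cells of 1 group came from separate mice is not given in the sources used here. The p-values therefore measure the spread between these libraries.

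Macrophages sense microbes and danger through surface and endosomal receptors. The signal reaches the transcription factors NF-kappaB and AP-1 and the interferon regulatory factors, which switch on cytokines, chemokines and antiviral proteins. Resting macrophages keep up a low tonic interferon signal, in which secreted type I interferon acts through STAT2 and IRF9 on the interferon-stimulated genes. The same cells make complement component C1q, take up opsonised particles through Fc receptors, present antigen on MHC molecules and handle cholesterol in lysosomes and at the plasma membrane.

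Macrophage markers were abundant in all 8 libraries. All 15 macrophage markers were listed, with a summed normalized count between 1024260 and 1082740 in PBS and between 972865 and 1005790 in BMDM-HG-exo. The values are gene counts divided by the size factor of the library, and the reads behind them ran from 34016445 to 44693640 in PBS and from 42356003 to 45905440 in BMDM-HG-exo. Neutrophil markers, 7 of 13 listed, summed to between 6805 and 7188 in PBS and to between 5996 and 6572 in BMDM-HG-exo. Of the endothelial markers 2 of 8 were listed, and their sum ran from 6589 to 7132 in PBS and from 8326 to 9531 in BMDM-HG-exo. The defining genes Cdh5 and Tek of that cell type were not listed, and neither were Cd3e of T cells and Ly6g of neutrophils. Of T and NK cell markers 1 of 13 was listed, of B cells 2 of 8, of mast cells and basophils 0 of 8, of dendritic cells 1 of 10 and of monocytes and progenitors 4 of 10. Markers of fibroblasts, 6 of 9 listed, summed to between 199 and 396 in PBS and to between 126 and 315 in BMDM-HG-exo, and those of red cells and platelets, 2 of 10 listed, to between 447 and 503 and between 350.2 and 438. The part of depth and of such markers in the results was not tested.

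More genes were lower than higher after BMDM-HG-exo. Genes were called when the limma p-value, adjusted by Benjamini-Hochberg, was under 0.05 and the log2 fold change reached 0.15 in size, and 701 of the 14382 genes, or 4.87%, passed. Of these, 446 genes (3.10% of those tested) fell and 255 (1.77%) rose. The changes were small, with a median absolute log2 fold change of 0.28, and 106 of the 701 genes reached 1.5-fold, 66 lower and 40 higher. The median over all genes was 0.00. Of the 3596 genes with the highest means 10.9% were called, and of the 3596 with the lowest 0.556%. For a gene list, a share called near 4.87% or 10.9% is no result about that list. In 610 of the 701 genes the 4 libraries of one group lay entirely above or below those of the other, which held for 10% of all genes tested. The direction was the same on all 4 dates in the sample titles for 681 of the 701, and on 3 of 4 for the other 20. The genes were called from these same libraries, so the agreement between dates is a description and no separate support. Without the trend of the variance on the mean in the test, 26 genes passed. These bulk values cannot tell fewer cells of a type from less RNA per cell.

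**Figure D1:**
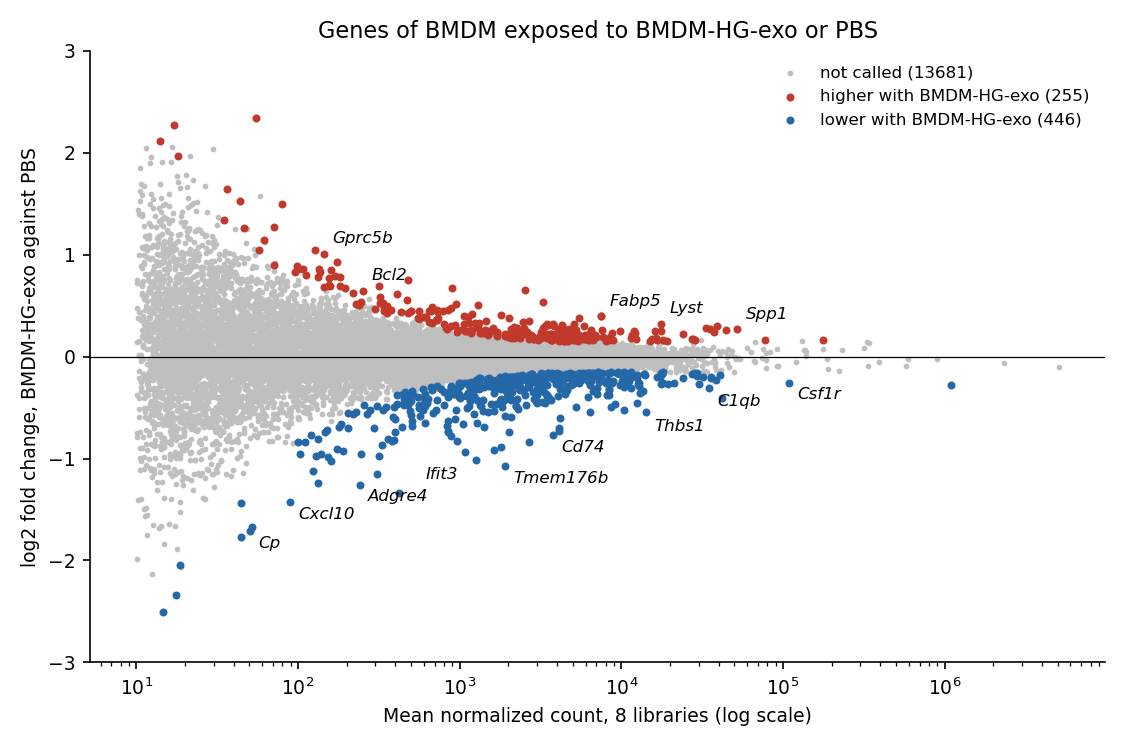
Each point is 1 of the 14382 genes tested, with the mean normalized count of the 8 libraries on a log x axis and the log2 fold change of BMDM-HG-exo against PBS on the y axis. Coloured points are the 255 genes that rose and the 446 that fell, and the lower genes form the larger group at high counts.

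Of the 36 gene lists, that of interferon-stimulated genes was the one in which every member fell. Its 34 members had log2 fold changes between -1.03 and -0.24 with a median of -0.52, where the median of all genes was 0.00. The groups did not overlap for 31 of the 34 and all 34 were lower on every date. Both counts come from the libraries that gave the calls and are a description. The members were chosen by hand with earlier results of these data known, so that all 34 fell is a description too. The summed normalized count of the list ran from 80886 to 86021 in PBS and from 56001 to 67099 in BMDM-HG-exo. In the 8 fits that left out 1 library, 32 of the 34 passed every time, the exceptions being Isg15 and Bst2. Without the trend 1 of the 34 passed, and the adjusted p-values then ran from 0.0454 to 0.275.

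The list holds RNA-binding effectors, enzymes and the transcription factors that drive them. Ifit3 (ENSMUSG00000074896; chromosome 19 of GRCm38 from 34583531 to 34588731), which encodes an antiviral protein with tetratricopeptide repeats, had 1922, 1441, 1688 and 1670.3 normalized counts in PBS libraries 1 to 4 and 646, 752, 875 and 1089.6 in BMDM-HG-exo libraries 1 to 4. Its log2 fold change was -1.02 (standard error, SE, 0.0996, limma adjusted p = 3.46e-09). The highest exosome library stayed below the lowest PBS library, and exosome library 1 was the lowest of all. Its relative Ifit2 fell from 3528, 3017, 3614 and 3566 to 1564, 1725, 2124 and 2314 normalized counts, with a log2 fold change of -0.84 (limma adjusted p = 6.64e-10). Mx1, a gene of the GTPase class, had 1583, 1264, 1526 and 1260.4 in PBS and 614, 734, 661 and 969.5 after BMDM-HG-exo (log2 fold change -0.93, limma adjusted p = 1.86e-08). Signed values in parentheses are such fold changes from here on. In both genes every exosome library lay under every PBS library.

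Irf7, the interferon regulatory factor that amplifies type I interferon, went from 2448, 2314, 2174 and 2383 normalized counts in the 4 PBS libraries to 1169, 1037, 1402 and 1469.9 in the 4 exosome libraries. The log2 fold change was -0.89 (SE 0.0758, limma adjusted p = 1.32e-10). Oasl2, an oligoadenylate synthetase-like protein, had 5320.3, 5072, 4899 and 5233 and 2729, 2772, 3325 and 3603 (-0.73, adjusted p = 5.70e-11). Exosome libraries 1 and 2 were lower than 3 and 4 in Irf7 as in Oasl2, and none reached the PBS range. The DNA sensor gene Ifi204 (-0.50, adjusted p = 1.41e-08) fell from a mean of 6108 ± 410.0 to 4333 ± 393 normalized counts (SD, n = 4). It belongs to a family with similar copies, as does Ifi206, which fell by 1.15 and lies outside the list. Reads of such copies could have been split in counting. Oasl1 of the same list fell by 1.03 (adjusted p = 0.000310) from a mean of 216 ± 35.1 to 106 ± 16.8 normalized counts (SD, n = 4).

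**Figure D2:**
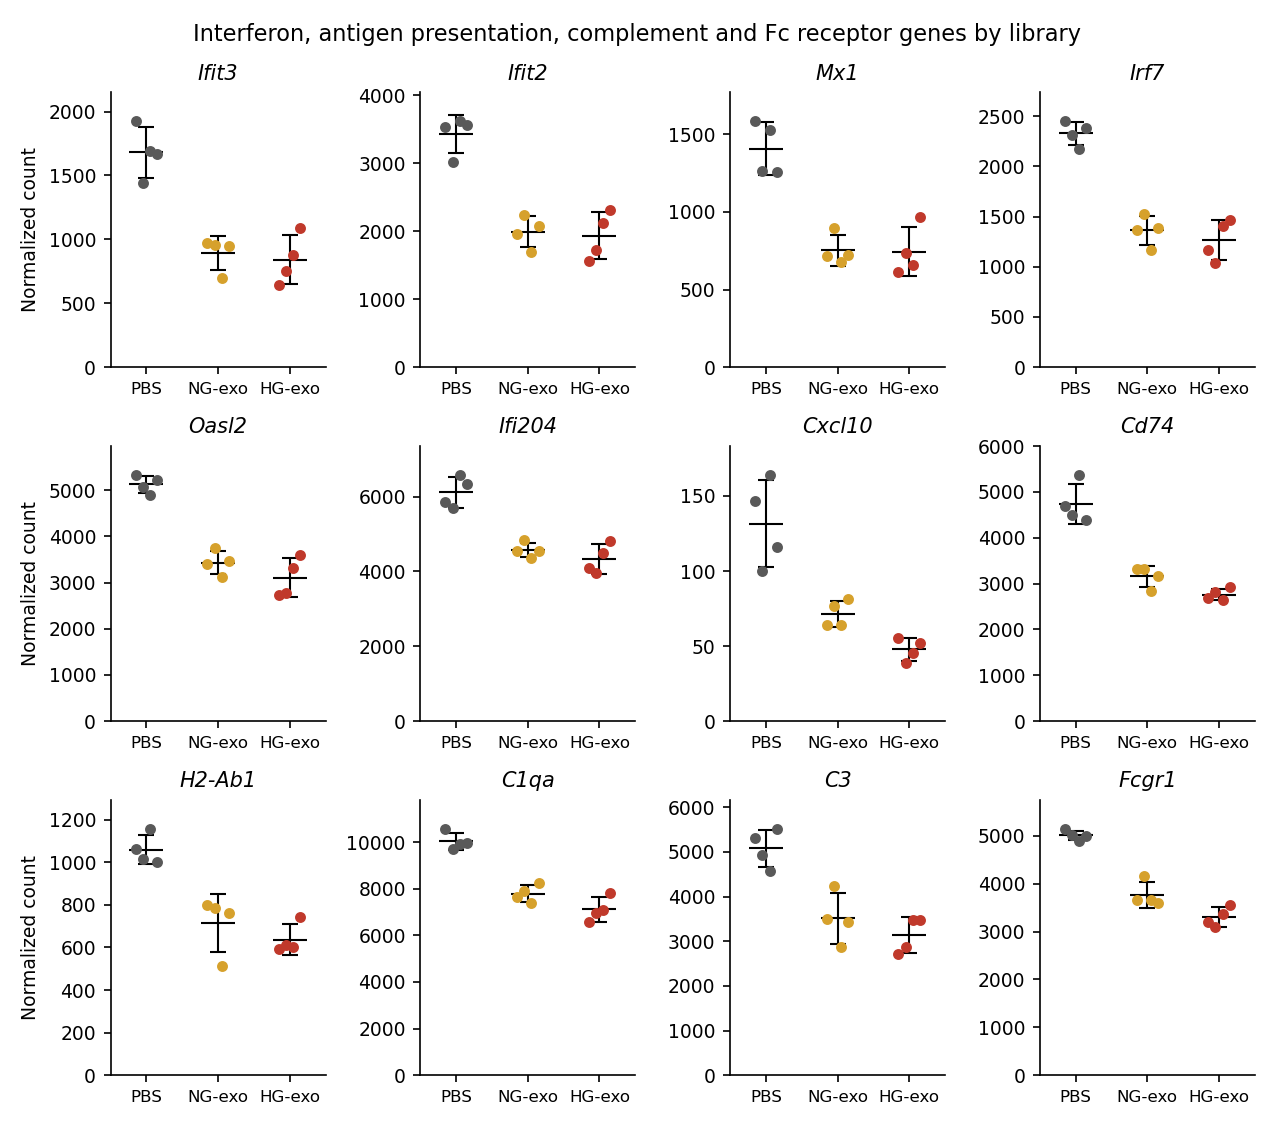
Normalized counts of 12 immune genes in each library, with the 3 treatments on the x axis of each panel, 1 point per library and bars at the mean ± SD (n = 4). In all panels the 4 BMDM-HG-exo points lie below the 4 PBS points, as in Ifit3, where they run from 646 to 1089.6 against 1441 to 1922.

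The bases before the start of interferon-stimulated genes were read to show where their known control element lies. Promoter windows of RefSeq (GRCm38.p6, from 250 bases before to 50 after a start) matched 9717 of the 14382 genes by symbol. They were searched on both strands for GAAANNGAAA, the core of the interferon-stimulated response element, on which IRF9 and other interferon regulatory factors bind. The core was in 14 of the 24 windows of the interferon list, or 58.3%, and in 60 of 346 windows of all lower genes, or 17.3%. It was in 3 of 171 windows of higher genes, or 1.75%, and in 316 of all 9717, or 3.25%. Lower genes outside the list had it in 46 of 322 windows, or 14.3%. These motif letters were chosen after the data were seen, and a match is a description of the sequence and no evidence of binding. The stretches below are from genes with large falls, on the strand of the gene, with the matches to the core or its reverse complement in capitals. Among these genes Ifit3 alone belongs to the interferon list. The list members Ifit2 and Oasl1, searched in the same way, had no match to the core before the start. None was found for the list members Oasl2, Irf7, Ifi204 and Mx1 either, and whether these had a window is not given here. Ifit3 had 2 matches, at chr19:34583353-34583436, and Cxcl10 had 1 at chr5:92349073-92349122 on the minus strand. Ifit1bl1 (chr19:34602043-34602092), Ifi206 (chr1:173491329-173491378) and Tgtp2 (chr11:49064253-49064302), all on the minus strand, had 1 each. The RefSeq start of Ifi206 lies 277 bases from the 5' end in GENCODE.
Ifit3: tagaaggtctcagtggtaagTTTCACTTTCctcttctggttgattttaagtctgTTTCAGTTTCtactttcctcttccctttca
Cxcl10: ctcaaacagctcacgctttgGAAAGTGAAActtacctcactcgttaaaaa
Ifit1bl1: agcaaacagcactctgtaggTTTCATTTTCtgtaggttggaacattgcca
Ifi206: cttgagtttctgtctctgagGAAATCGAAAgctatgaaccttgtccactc
Tgtp2: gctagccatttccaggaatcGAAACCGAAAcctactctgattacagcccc

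Other motifs were less unequal. TGANTCA, to which AP-1 dimers of FOS and JUN proteins bind, was in 10.4% of lower, 4.68% of higher and 4.70% of all windows. GGGNNTTTC, the shared part of many NF-kappaB sites, was in 8.09%, 2.92% and 4.37%, and CCAAT was in 35.5%, 35.1% and 39.0%. The cyclic AMP response element TGACGTCA was in 1.45%, 1.75% and 3.26%. The E-box CACGTG, which factors of the TFEB family bind at lysosomal genes and which was also added after the data were seen, was in 4.05%, 10.5% and 10.4%. No motif of the 6 is contained in another.

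Cxcl10, a chemokine that draws activated T cells, had 147, 99.7, 164 and 116 normalized counts in PBS libraries 1 to 4 and 55.3, 38.6, 45.2 and 52.2 in the exosome libraries. The log2 fold change was -1.43 (SE 0.258, limma adjusted p = 0.000207). The 4 exosome libraries kept close together below the PBS range. Ifit1bl1 fell by 1.24, and Tgtp2, a T cell-specific GTPase gene with a near-identical neighbour and an overlap with Olfr56, fell by 0.98. Of the called genes averaging 50 or more and without overlap, Cp had the largest fall. It encodes the copper ferroxidase ceruloplasmin and went from 63.3, 90.8, 64.7 and 87.3 to 10.1, 31.2, 20.6 and 37.6 normalized counts (-1.71, adjusted p = 0.00223). Cp overlaps Hps3 in the annotation, and its 4 exosome libraries differed widely at these low counts. Cd300e, an activating receptor of monocytes, fell from 93.7, 98.6, 64.7 and 56.6 to 16.1, 13.8, 33.4 and 39.4 (-1.67, adjusted p = 0.00251).

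Tmem176b (ENSMUSG00000029810; chromosome 6 of GRCm38 from 48833818 to 48841496) had the smallest p-value of all genes, and with its neighbour Tmem176a it encodes related membrane proteins of myeloid cells. Tmem176b went from 2649, 2535, 2439 and 2644 normalized counts to 1159, 1070.5, 1277 and 1385, with a log2 fold change of -1.07 (SE 0.0663, limma adjusted p = 6.41e-14). Tmem176a went from 689, 515, 594 and 597 to 235, 176, 246 and 298 (-1.34, adjusted p = 5.54e-09). In both genes the highest exosome library lay far below the lowest PBS library. The genes lie head to head on opposite strands and overlap, so reads near their starts depend on strand-specific counting. Their RefSeq starts lie 564 bases (Tmem176a) and 122 bases (Tmem176b) from the 5' end in GENCODE. The RefSeq windows of both hold the same GGGNNTTTC match, at chr6:48841378-48841426, which is shown on either strand with the match in capitals.
Tmem176a: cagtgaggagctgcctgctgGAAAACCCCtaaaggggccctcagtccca
Tmem176b: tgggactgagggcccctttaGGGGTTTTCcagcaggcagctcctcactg

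Antigen presentation genes fell in part. Of the 17 MHC class II genes tested, 5 fell and none rose, with a median log2 fold change of -0.34. Cd74, the invariant chain that guides class II molecules, had 4701, 4499, 5359.8 and 4384 normalized counts in PBS and 2679, 2808, 2639.8 and 2926 after BMDM-HG-exo (-0.77, SE 0.0532, limma adjusted p = 9.91e-13). H2-Ab1, a class II chain, had 1064, 1017, 1154 and 1000.4 and 591, 610.1, 603 and 744 (-0.74, adjusted p = 1.35e-07). PBS library 3 was the highest in both, and the groups did not overlap. The others were Ciita, the master regulator of class II genes (-0.74), H2-DMa, which helps load peptide (-0.60), and H2-Aa (-0.70), the last with overlapping groups. Abundant members such as the protease gene Ctss were not called, and the summed count of the list ran from 144409 to 150784 in PBS and from 146899 to 152552 after exosomes. Of 19 MHC class I genes 6 fell, with a median of -0.16. They were the peptide transporter Tap1 (-0.29), the class I genes H2-K1 (-0.16), H2-Q4 (-0.27) and H2-T23 (-0.17), whose near-identical relatives make the counts uncertain, the immunoproteasome subunit Psmb10 (-0.29) and the class I transactivator Nlrc5 (-0.18).

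Of the 12 complement genes 7 fell and none rose, with a median of -0.32. C1qa, which encodes a chain of the C1q initiator, had 10544, 9724, 9908 and 9977 normalized counts in PBS and 6576, 6968, 7089 and 7817 after BMDM-HG-exo, a log2 fold change of -0.50 (SE 0.0425, limma adjusted p = 1.32e-10). The other chains C1qb (-0.30) and C1qc (-0.27) also fell. C3, the central component, went from 5324, 4932, 4566 and 5504 to 2720.1, 2862, 3478 and 3479.6 (-0.70, adjusted p = 3.51e-10). For C1qa and C3 all exosome libraries lay below all PBS libraries, and the gap in C3 was close to the spread within a group. Cfp, the positive regulator properdin, fell by 0.33. Itgam, the alpha chain of a complement receptor, had a log2 fold change of -0.38 and fell from a mean of 9480.1 ± 283 to 7304 ± 492 (SD, n = 4).

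Of 21 Fc receptor and efferocytosis genes, 3 fell and 2 rose, with a median of -0.05. Fcgr1, the high-affinity receptor for IgG, went from 5135, 5029.6, 4892 and 4989 normalized counts to 3205, 3097, 3372 and 3567, a log2 fold change of -0.60 (SE 0.0467, limma adjusted p = 2.05e-11). The PBS libraries lay close together and the exosome libraries well below them. Axl, a receptor for bridging molecules on dying cells, fell by 0.23, while its ligand Gas6 rose by 0.16 and the bridging protein gene Mfge8 by 0.25. The other bridging ligand, Pros1, fell by 0.25. The scavenger receptor and lectin list had 6 lower and no higher genes of 20, with a median of -0.10. Clec4a1 went from 2510.1, 2586, 2578 and 2412 to 1418, 1388, 1622 and 1624 (-0.74, adjusted p = 5.70e-11), and its relatives Clec4a2 (-0.49) and Clec4a3 (-0.37) fell too. Clec4a genes are close copies of one another, so their reads may be shared. Clec4e, a receptor for mycobacterial glycolipid (-0.42), and Clec10a, which binds galactose (-0.53), were lower, and the last one is Cxcl16 (-0.28), a chemokine that also binds oxidised lipoprotein.

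Of 23 Toll-like receptor genes and adaptors 6 fell, with a median of -0.07. Tlr2, which senses bacterial lipoproteins, went from 3504, 3366, 3220.3 and 3588 normalized counts to 2519, 2405, 2520.1 and 2663 (-0.44, SE 0.0506, limma adjusted p = 1.31e-07). The exosome libraries lay below every PBS library. The others were its partner Tlr1 (-0.41), the endosomal DNA receptor Tlr9 (-0.35), the lipopolysaccharide co-receptor Cd14 (-0.32), the chaperone Unc93b1 (-0.20) and the adaptor Myd88 (-0.20). Of 22 NF-kappaB subunit and feedback genes 10 fell and none rose, with a median of -0.14. Bcl3, a nuclear co-regulator, had 1526, 1579, 1381 and 1356 and 1018, 872, 1065 and 1007 (-0.56, adjusted p = 1.22e-06). Also lower were the kinase gene Ikbke (-0.37), the inhibitor of apoptosis Birc3 (-0.34), the feedback genes Tnip3 (-0.42) and Nfkbiz (-0.43), and the subunit Nfkb2 (-0.37).

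Of 32 immediate early and AP-1 genes 5 fell (15.6% called), with a median of -0.08. Fos, a subunit of AP-1, had 2186, 2566, 2276 and 2053 normalized counts in PBS and 1487, 1448, 1316 and 1815 after BMDM-HG-exo (-0.59, SE 0.0736, limma adjusted p = 5.39e-07). PBS library 2 was the highest and exosome library 4 the highest of its group, still below PBS. Its partner Junb fell by 0.27. Zfp36 (-0.30) and Zfp36l1 (-0.33), which destabilise cytokine mRNAs, and the antiproliferative gene Btg2 (-0.20) were lower as well. Zfp36 was the one of the 5 whose groups overlapped.

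Il1b was the 1 gene that fell among 15 inflammatory cytokine and enzyme genes (6.67% called), whose median was -0.20. This cytokine gene had 149, 179, 198 and 142 normalized counts in PBS and 42.3, 88.2, 94.2 and 91.6 after exosomes, a log2 fold change of -1.13 (SE 0.239, limma adjusted p = 0.00170). Exosome library 1 lay far below the other 3. Acod1, which makes itaconate, had a log2 fold change of -0.57 and did not pass (adjusted p = 0.0885), with PBS between 169.5 and 233 and exosomes between 103 and 172. Of 14 chemokine genes 5 fell and 1 rose, with a median of -0.24. Besides Cxcl10, the neutrophil attractant Cxcl2 (-0.97) fell from 179.8, 192, 159 and 149 to 59.4, 129, 70.7 and 99.9. Cxcl16, Ccl9 (-0.18) and the platelet factor gene Pf4 (-0.37) fell, the last one passing in 1 of the 8 fits that left out a library. Ccl3, an inflammatory chemokine, rose from 724, 760.0, 699 and 675 to 959, 899.6, 842 and 873 (0.32, adjusted p = 0.0102), with no overlap.

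Of 14 chemoattractant receptor genes 6 fell, with a median of -0.19. Cx3cr1, the fractalkine receptor of monocytes, went from 7525, 7633, 7539.7 and 7781 normalized counts to 5219, 4659.6, 5237 and 5807 (-0.55, limma adjusted p = 1.32e-10), and it overlaps several annotated genes. The monocyte receptor Ccr2 went from 4037, 3936, 3810.1 and 3872 to 2679.9, 2959.7, 3072 and 3418 (-0.37). In both, exosome library 4 was the one nearest to PBS. C5ar1, the C5a receptor (-0.17), the nucleotide receptor P2ry6 (-0.21) and the chemerin receptor Cmklr1 (-0.49) fell as well. Of 40 genes for colony-stimulating factor receptors and myeloid regulators 14 fell and none rose, with a median of -0.09. Csf1r, the M-CSF receptor (-0.26), fell from a mean of 118488 ± 4694 to 99183 ± 3178 normalized counts (SD, n = 4). Lower too were the cytokine receptor chain Csf2rb (-0.25), the interferon gamma receptor Ifngr1 (-0.23), the transcription factor Irf1 (-0.30) and the IL-10 receptor Il10ra (-0.19). Among 19 inflammasome and pyroptosis genes 4 fell, with a median of -0.02. They were the sensor Nlrp3 (-0.24), the caspase Casp4 (-0.37), the pore-forming Gsdmd (-0.18) and Il1b. Of 19 alternative activation genes 2 fell (10.5% called), with a median of -0.08, Clec10a among them.

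**Figure D3:**
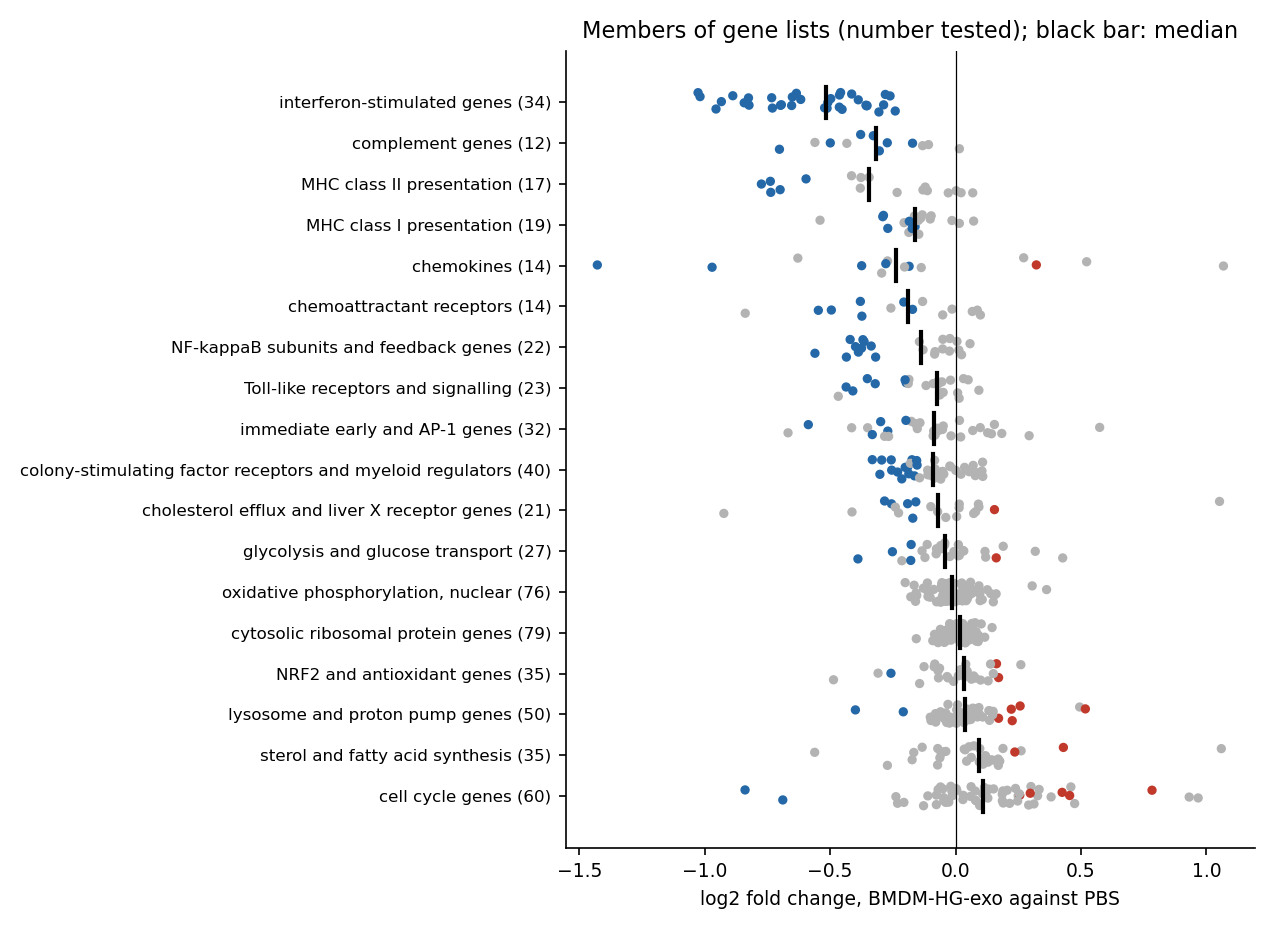
Log2 fold changes of BMDM-HG-exo against PBS on the x axis for the members of 18 gene lists, 1 row per list, with coloured points for genes that rose or fell and a bar at each list's median. The interferon-stimulated row has all 34 points below 0 with its median at -0.52, while the oxidative phosphorylation row is centred near 0 with no coloured point.

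Of 27 adhesion genes 8 fell and 1 rose, and of 26 matrix genes 3 fell and 2 rose. Their medians were both -0.06, and the difference was not tested. Itgal, a leukocyte integrin chain (-0.39), Aif1, an actin-bundling protein of macrophages (-0.67), and the adhesion molecule Icam1 (-0.30) fell. Adgre4, an adhesion receptor, had 257, 312, 439.6 and 359 normalized counts in PBS and 117, 141, 163 and 144 after BMDM-HG-exo (-1.25, limma adjusted p = 1.64e-06), with PBS library 3 the highest and no overlap. The F4/80 gene Adgre1 fell by 0.21. Thbs1, the matrix glycoprotein thrombospondin 1, had 15545, 17841, 18418 and 15198 and 9568, 11753, 11693 and 13074 (-0.54, SE 0.0576, adjusted p = 1.91e-08). All exosome libraries were below all PBS libraries, with library 1 the lowest. Tgfbi, an adhesive matrix protein (-0.30), and the membrane metalloproteinase Mmp14 (-0.81) fell. Spp1, which encodes osteopontin, rose from 49422, 46282, 44405 and 49042 to 61126, 58369, 54569 and 54109.6 (0.27, adjusted p = 1.12e-06) and the macrophage elastase Mmp12 from 1817, 1631, 1975 and 1645 to 2308, 2375, 2348 and 2156 (0.38, adjusted p = 3.49e-05). In each of these 2 genes the lowest exosome library lay above the highest PBS library.

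Lipid genes moved in both directions. Of 21 cholesterol efflux and liver X receptor genes 5 fell and 1 rose, with a median of -0.07. Abca1 (ENSMUSG00000015243; chromosome 4 of GRCm38 from 53030787 to 53159895), which exports cholesterol to lipid-poor apolipoprotein, had 19158, 20117, 19995 and 19866 normalized counts in PBS and 15792, 16453, 16666 and 17422 after BMDM-HG-exo. Its log2 fold change was -0.26 (SE 0.0335, limma adjusted p = 1.20e-06), and the exact two-sided permutation test over the 8 libraries gave p = 0.0286, the smallest that 70 splits allow. The groups were tight and did not overlap. Pltp, the phospholipid transfer protein (-0.19), the transporters Abca9 (-0.28) and Abca7 (-0.17) and the liver X receptor beta gene Nr1h2 (-0.16) also fell. The last was close to the threshold (adjusted p = 0.0499) and its groups overlapped. Soat1, which esterifies cholesterol, rose by 0.16.

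Fabp5 and Fabp4, cytosolic fatty acid carriers, were the 2 higher genes of 29 in the list of fatty acid oxidation and lipid droplets (6.9% called). The median of the list was 0.01. Fabp5 had 6916, 6065, 6337 and 6521 normalized counts in PBS and 8738, 8868, 8579 and 7854 after exosomes (0.40, SE 0.043, limma adjusted p = 2.85e-08). Fabp4 had 342, 297, 303 and 356 and 546, 485, 499 and 457 (0.61, adjusted p = 0.000319). Both stood above PBS in every exosome library. In the sterol and fatty acid synthesis list, with a median of 0.09, 2 of 35 genes rose (5.71% called, against 4.87% of all genes).

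Of 50 lysosome and proton pump genes 5 rose and 2 fell, with a median of 0.04. The share called was 14%, against 10.9% of the genes with the highest means. The 4 named genes that rose encode subunits of the vacuolar proton pump. Atp6v0d2, a subunit of the membrane sector, had 831, 751, 753 and 788 normalized counts in PBS and 1127, 1221, 1077 and 1051 after BMDM-HG-exo (0.52, SE 0.0769, limma adjusted p = 1.01e-05). Atp6v1a, the catalytic subunit, went from 22693, 21589, 22418 and 21864 to 26953, 26507, 25459.6 and 24449.5 (0.22, adjusted p = 9.15e-06), Atp6v1c1 rose by 0.26 and Atp6v0a1 by 0.17. No exosome library of these reached down to PBS. The 2 genes that fell encode proteases, Ctsc (-0.40) and Ctsl (-0.21). The E-box CACGTG was in 12 of the 38 windows of the list, or 31.6%, against 10.4% of all windows. The match of Atp6v1a lies at chr16:44139365-44139410 on the minus strand and that of Abca1 at chr4:53160017-53160062 on the minus strand, and both are given with the match in capitals. The RefSeq start of Atp6v1a lies 446 bases from the 5' end in GENCODE. Atp6v0a1, searched in the same way, had no E-box before the start. None was found for Atp6v0d2 and Atp6v1c1 either, and whether these had a window is not given here.
Atp6v1a: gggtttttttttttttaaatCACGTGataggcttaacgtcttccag
Abca1: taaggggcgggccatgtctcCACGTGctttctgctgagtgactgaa

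The share of energy metabolism genes called differed between lists. None of the 76 nuclear oxidative phosphorylation genes, 13 mitochondrially encoded genes or 25 tricarboxylic acid cycle genes passed in limma, with medians of -0.02, -0.05 and -0.01. The smallest adjusted p-values belonged to Ndufb6 of complex I (log2 fold change 0.36, adjusted p = 0.136), mt-Nd6 (-0.11, 0.226) and Idh3a (0.24, 0.158). At an unadjusted p under 0.05, 5 of the 76, 2 of the 13 and 4 of the 25 genes were found, while edgeR and DESeq2 each called 0 in all of them. Of 27 glycolysis and glucose transport genes 4 fell and 1 rose (18.5% called), with a median of -0.04. Slc2a6, a lysosomal sugar transporter of macrophages, had 2354, 2313, 2236 and 2268 normalized counts in PBS and 1774, 1664, 1708 and 1861 after exosomes (-0.39, limma adjusted p = 6.01e-06), without overlap. Hif1a, the hypoxia factor (-0.18), Pfkfb4, a regulator of glycolytic flux (-0.25), and hexokinase Hk2 (-0.18) fell, while hexokinase Hk3 rose by 0.16 with overlapping groups. In the 8 fits that left out 1 library, Hk2 and Hk3 each passed in 3, Pfkfb4 in 6 and Hif1a in 7. Of 35 NRF2 and antioxidant genes, catalase (Cat, 0.17) and the glutathione transferase Gstm1 (0.16) rose and the mitochondrial dismutase Sod2 fell by 0.26. The median of that list was 0.03, and 8.57% of it was called. Gstm1 had overlapping groups and passed in 3 of the 8 fits that left out a library.

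Of 60 cell cycle genes 5 rose and 2 fell (11.7% called), 41 had a log2 fold change above 0, and the median was 0.11. Mki67, the Ki-67 antigen of cycling cells, had 4236, 4385, 4153 and 4217 normalized counts in PBS and 4988, 5313, 5188 and 4814 after BMDM-HG-exo (0.26, SE 0.0435, limma adjusted p = 8.56e-05). Cenpf, a kinetochore protein, had 681, 708, 745 and 719.5 and 889, 1050.3, 1039 and 943 (0.45, adjusted p = 0.000172). The groups did not overlap in either. The anaphase activator Cdc20 rose by 0.78, and Kif23 and Prc1 of the midbody by 0.30 and 0.42, the last 2 passing in 3 of the 8 fits that left out a library. Ccnd2, which encodes cyclin D2 (-0.69), fell from 248, 198, 210.0 and 226 to 117, 176, 147 and 114. None of 67 histone genes passed in limma, with a median of -0.01, 5 at an unadjusted p under 0.05, 0 called by edgeR and 1 by DESeq2.

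Bcl2, which encodes an inhibitor of apoptosis, had 187, 184, 241 and 181 normalized counts in PBS libraries 1 to 4 and 324, 284, 283 and 346 in the exosome libraries. It rose by a log2 fold change of 0.64 (SE 0.148, limma adjusted p = 0.00379), and the exact two-sided permutation p was 0.0286. PBS library 3 was the highest of its group and stayed below all exosome libraries. Of the 29 apoptosis regulators 1 rose and 1 fell (6.9% called), with a median of -0.03, the other being the pro-apoptotic Bmf (-0.32). Hipk2, a nuclear kinase gene that the annotation places over Tbxas1, rose from 10888, 10819, 10391 and 11409 to 13846, 12107, 12591 and 13118 (0.25, limma adjusted p = 2.49e-05, exact permutation p = 0.0286). Its relatives Hipk3 and Hipk1 had log2 fold changes of 0.12 and -0.01 and did not pass, and the median of the 3 was 0.12. Adjusted over Bcl2, Abca1 and Hipk2, the exact permutation p stayed at 0.0286, the smallest that 70 splits allow. The study named these 3 genes from sequencing that included these libraries, so the permutation tests are no separate support.

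Of 34 receptor-proximal signalling genes 5 rose and 7 fell, with a median of -0.03. Lyst, the lysosomal trafficking regulator, had 15187, 15498, 16055 and 15832 normalized counts in PBS and 19849.9, 19484, 19638 and 19305 after BMDM-HG-exo (0.32, SE 0.0318, limma adjusted p = 3.97e-09). The exosome libraries lay close together and above all PBS libraries. Nav2 rose by 0.25, Rasgrp3, a Ras activator, by 0.35, and the ubiquitin ligase Cblb by 0.30, while the adaptor Pik3ap1 (-0.20) fell. Of 42 exosome biogenesis and uptake genes Cd9 rose by 0.16 and Sdc4 fell by 0.22, with a median of 0.01. The share called, 4.76%, was near the 4.87% of all genes. Of 28 unfolded protein and amino acid stress genes 3 fell (10.7% called), with a list median of -0.04. They were the chaperone Hspa5 (-0.17), Herpud1 (-0.29) and the disulfide isomerase Pdia4 (-0.19). None of 16 heat shock genes and 79 ribosomal protein genes passed in limma, with medians of 0.01 and 0.02, 3 and 4 at an unadjusted p under 0.05, and 0 in both called by edgeR or DESeq2. Of 24 histone demethylase and Polycomb genes 2 fell (8.33% called), Jarid2 (-0.31) and the demethylase Kdm6b (-0.43), with a median of -0.04.

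**Figure D4:**
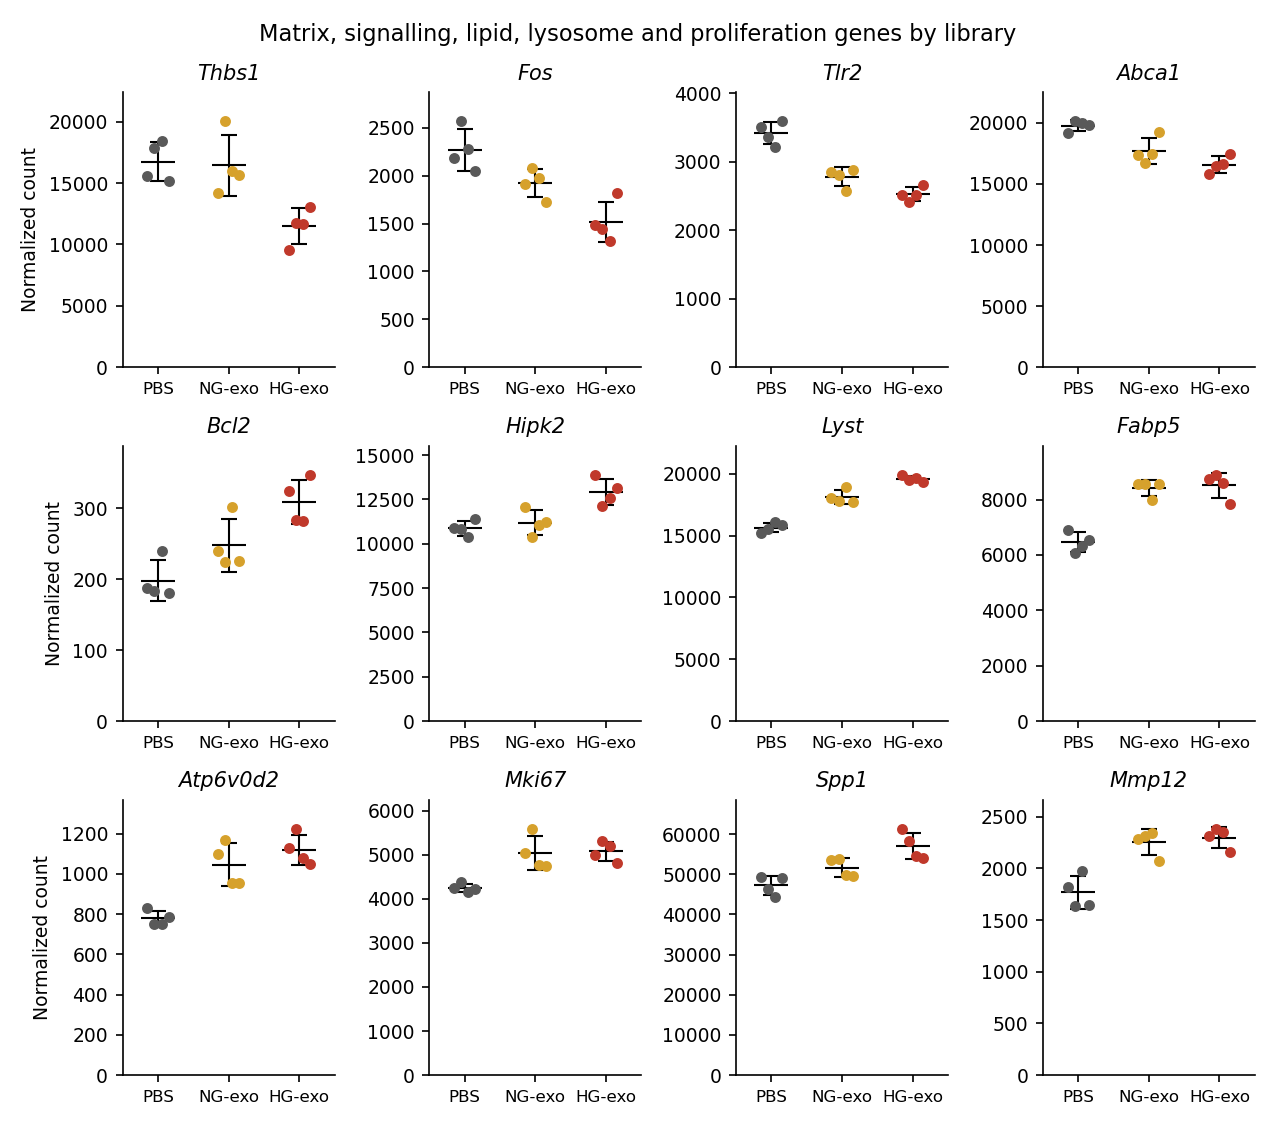
Normalized counts of 12 further genes in each library, with the 3 treatments on the x axis, 1 point per library and bars at the mean ± SD (n = 4). BMDM-HG-exo points lie below PBS in the top row (Thbs1, Fos, Tlr2, Abca1) and above it in the other panels, and in Thbs1 the BMDM-NG-exo points lie with PBS.

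The genes with the largest rises were of low count and many were noncoding. Gprc5b, an orphan receptor, had 108, 69.8, 97.7 and 101 normalized counts in PBS and 269, 139, 199 and 169 after BMDM-HG-exo (1.01, limma adjusted p = 0.00169), and it overlaps Iqck. Exosome library 1 was the highest and library 2 the nearest to PBS. Gm37101, with 10.1, 82.0, 59.8 and 42.7 and 109, 102, 104 and 130.1 (1.50, adjusted p = 0.00925), lies inside Nek7 on the same strand. Gm48334 rose by 1.27 inside Ncoa7, Gm47087 by 0.93 inside Maml2, and Gm21816 and Gm38071 by 1.04 and 0.86 inside Mir99ahg. Gm15374 (1.14) and Ugt1a6b (0.86) overlap the Ugt1a gene cluster, and Trav14-3 (1.04) is a T-cell receptor segment with close copies, so these values are uncertain. Heg1, Vash2 and Gm14461 rose by 0.90, 0.89 and 0.86. In the fits that left out 1 library, Heg1 and Trav14-3 passed in 2 of 8 and Vash2 and Gm15374 in 4 of 8.

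The calls were also counted by annotation class. Of the 757 genes tested of the class TEC, which holds transcripts not yet verified by experiment, 20 rose and 1 fell (2.77% called). Their median log2 fold change was 0.21. Of 112 sense intronic genes 1 rose (0.893% called), with a median of 0.19. For BMDM-NG-exo against the same PBS libraries the medians were 0.03 and 0.04. TEC genes held 0.137% to 0.176% of the reads in PBS and 0.162% to 0.193% in BMDM-HG-exo. Protein-coding genes were also grouped by the length of their span on the genome. Of the 2890 spanning up to 10395 bases 28 rose and 125 fell (5.29% called), and of the 2889 spanning 53746 bases or more 111 rose and 77 fell (6.51%), where 4.87% of all genes were called. Their median log2 fold changes were -0.03 and 0.03. These shares cannot tell unspliced RNA from mature RNA, since the counts give 1 value per gene. Of 16 long noncoding RNA genes 1 rose and 2 fell. Kcnq1ot1, an imprinted antisense RNA, rose from 2225, 2834, 3095 and 2512 to 3832, 3298, 4170.3 and 4162 normalized counts (0.54, limma adjusted p = 1.08e-06). Gm26917, which took 2.58% to 2.96% of the reads in PBS and 2.03% to 2.54% in BMDM-HG-exo, fell by 0.28. Mir22hg, the host of a microRNA, fell by 0.44 with overlapping groups, and the median of the list was 0.00.

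Among the markers of other cells, Vwf, an endothelial gene, rose by 0.40 (limma adjusted p = 1.29e-08) from 6390.4, 6247, 6791 and 6457 to 9205, 8048, 8467 and 8415 normalized counts. Its groups did not overlap. Kdr, the other endothelial marker listed, stood at -0.08 and did not pass (adjusted p = 0.815), while the endothelial genes Cdh5, Tek and Emcn were not listed. Whether cells other than macrophages took part in this was not tested.

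The response to BMDM-HG-exo was set beside that to BMDM-NG-exo to see what the glucose of the donor cells added. BMDM-NG-exo against the same PBS libraries gave 432 called genes (3% of 14413), and since both comparisons share PBS, values are only set side by side. The median of the interferon-stimulated genes was -0.52 for BMDM-HG-exo and -0.48 for BMDM-NG-exo, and their summed count ran from 57908 to 64345 in BMDM-NG-exo. Tested directly, BMDM-HG-exo and BMDM-NG-exo differed in 2 genes (0.0139%), 942 genes had an unadjusted p under 0.05, and edgeR called 1. For the interferon list the direct differences ran from -0.27 to 0.14, and the smallest adjusted p was 0.665, or 0.497 with the date as a block. For Ifit3 the 95% interval of the difference was -0.33 to 0.12, for C1qa -0.22 to -0.04 and for Fabp5 -0.07 to 0.10, all on the log2 scale. The interval of C1qa lies below 0, although its difference did not pass after adjustment, and the other 2 hold 0, which does not show that the vesicles act alike.

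Thbs1 was 1 of the 2 genes in which the exosome types differed. Its log2 fold change was -0.54 for BMDM-HG-exo and -0.03 for BMDM-NG-exo against PBS. The direct difference was -0.51 (95% interval -0.66 to -0.37, limma adjusted p = 0.000382), with 14208, 20026, 15996 and 15650.0 normalized counts in BMDM-NG-exo libraries 1 to 4. No BMDM-HG-exo library reached that range. The other called gene was Selenop, a selenium carrier, which was named because of this count and not by the naming rule (-0.16, 95% interval -0.22 to -0.10, adjusted p = 0.0476). With the date in the sample titles as a replicate block, 22 genes differed, 11 higher and 11 lower with BMDM-HG-exo. Of these, 7 were among the genes chosen by the naming rule. They were Thbs1, Fos, Adgre4, Itgam, Hipk2, Nav2 and Kcnq1ot1.

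Fos stood at -0.59 with BMDM-HG-exo and -0.24 with BMDM-NG-exo, with a difference of -0.35 (95% interval -0.50 to -0.20, adjusted p = 0.0895, with the block 0.0334, limma). Adgre4 stood at -1.25 and -0.53 (difference -0.72, -1.04 to -0.40, adjusted p = 0.0943, with the block 0.0299). The BMDM-NG-exo libraries of Adgre4 had 228, 233, 233 and 233 normalized counts, all between the other groups. Itgam stood at -0.38 and -0.18 (difference -0.20, adjusted p = 0.118, with the block 0.0235). Hipk2 stood at 0.25 and 0.04 (difference 0.21, 0.12 to 0.29, adjusted p = 0.0546, with the block 0.00127), and its BMDM-NG-exo libraries had 12082, 10351, 11056 and 11224. BMDM-NG-exo library 1 was close to the lowest BMDM-HG-exo library. Nav2 differed by 0.16 (adjusted p = 0.146, with the block 0.0360) and Kcnq1ot1 by 0.30 (adjusted p = 0.288, with the block 0.0299). Bcl2 stood at 0.64 and 0.32, and its difference of 0.32 (0.03 to 0.62) had an adjusted p of 0.706, with the block 0.597. Abca1 stood at -0.26 and -0.16, and it was called lower with BMDM-NG-exo too (limma adjusted p = 0.00601). Its direct difference of -0.09 (-0.17 to -0.02) did not pass (adjusted p = 0.635, with the block 0.337). Outside the naming rule and chosen after their values were seen, the transporter genes Slco4a1 (0.58, adjusted p = 0.0546, with the block 2.34e-06) and Slc5a3, which carries myo-inositol (0.27, adjusted p = 0.409, with the block 0.0113), were higher after BMDM-HG-exo than after BMDM-NG-exo in the block fit. Slc5a3 overlaps Mrps6 on the same strand. Both rose in cells kept in high glucose, with log2 fold changes of 3.15 and 1.59, and against PBS they stood at -0.01 and 0.24 with BMDM-HG-exo (adjusted p = 0.975 and 0.0355), so that the second passed and the first did not.

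The 8 libraries of BMDM kept in high or normal glucose share no library with the exosome comparison, so the responses could be tested against each other. High glucose against normal glucose with mannitol gave 1537 called genes (10.7% of 14354). The response to BMDM-HG-exo minus that to glucose differed from 0 in 1610 genes (11.2%), of which 579 were more positive with exosomes and 1031 more negative. With quantile normalization this split was 733 against 758. All 34 interferon-stimulated genes were among the 1610. Of these, 32 rose in high glucose, with a median of 0.48, while all fell with BMDM-HG-exo. Of all 446 genes that fell with BMDM-HG-exo, 195 rose and 37 fell in high glucose. Of the 255 that rose with BMDM-HG-exo, 27 rose and 49 fell in high glucose. Of all 14354 genes 898 rose and 639 fell, or 710 and 742 with quantile normalization, which was counted for all genes alone. Of the 3596 genes with the highest means in the exosome comparison, 528 rose and 195 fell in high glucose.

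Single genes moved in the opposite or in the same direction in both comparisons. C3 changed by -0.70 on the log2 scale after BMDM-HG-exo and by 1.05 in high glucose (adjusted p of the difference 2.95e-18, limma), Cx3cr1 had -0.55 and 0.73, and Tmem176b had -1.07 and 0.85. Atp6v0d2 went the other way round, with 0.52 and -0.74 (adjusted p of the difference 6.71e-12). Thbs1 fell in both (-0.54 and -0.57), and this difference did not pass (adjusted p = 0.927). Hipk2 rose in both, by 0.25 and 0.33 (adjusted p of the difference 0.405), and Spp1 by 0.27 and 0.43 (adjusted p of the difference 0.0779). Abca1 fell in both (-0.26 and -0.17, adjusted p of the difference 0.307). A missed threshold does not show that these responses were equal.

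**Figure D5:**
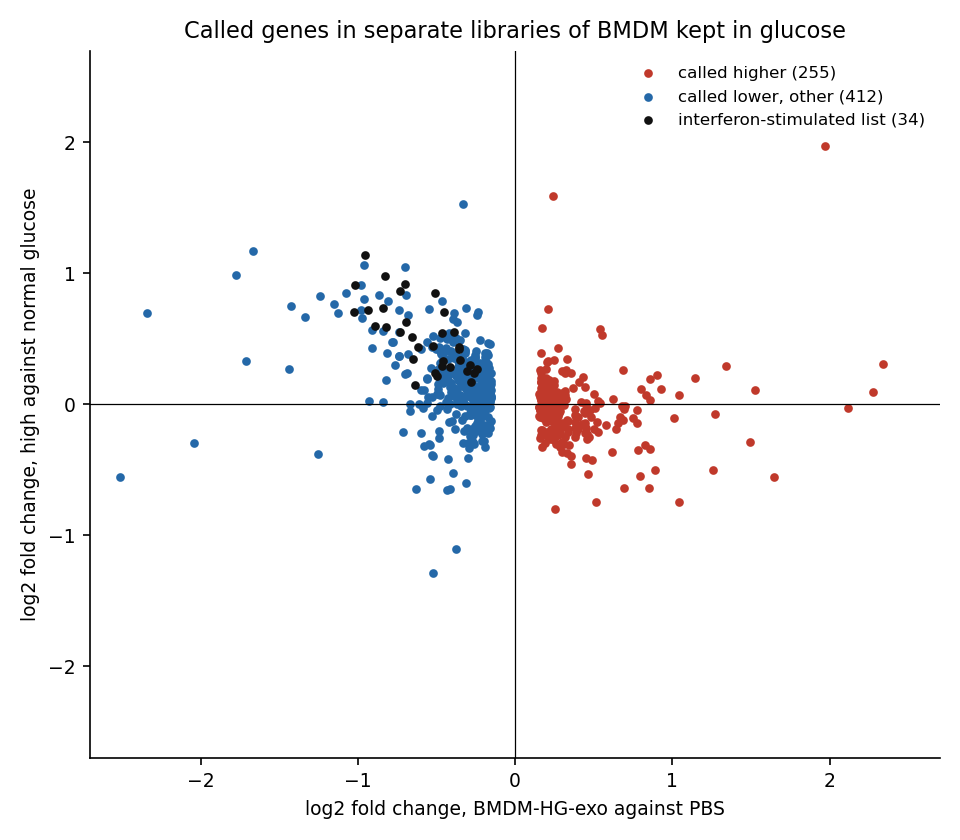
Called genes of the exosome comparison, with the log2 fold change of BMDM-HG-exo against PBS on the x axis and that of high against normal glucose, from separate libraries, on the y axis. The 34 interferon-stimulated genes lie at left with exosome values from -1.03 to -0.24 and glucose values from 0.15 to 1.14.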

How the data were processed

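Total RNA of the 20 mouse BMDM libraries was made into stranded cDNA libraries with the SMARTer Stranded Total RNA-Seq Pico kit from 10 ng of RNA and 12 cycles of enrichment PCR, and read on a NovaSeq in pairs of 100 bases. The authors removed the first 3 bases of read 2, trimmed reads (the submitters' processing notes name cutadapt), mapped them with STAR to GRCm38, assigned them to genes with featureCounts in a strand-aware mode (read 2 sense), and divided the counts by DESeq2 median-ratio size factors. The deposited signal is therefore a normalized count, and the annotation used for counting is not given in the sources used here. GENCODE M21 gave names, types and coordinates for 14421 of the 14456 identifiers. The columns hold no value without a sample (0 such columns) and no fold changes or p-values of the authors' own comparisons.

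The columns move in steps of 1 read, and 100% of the low values were whole within 0.1 after division by the step, so reads were recovered for depth and for count tests. Totals were 34016445 to 45905440 reads in the 8 libraries. Shares of reads carry counting error and the variation between libraries. Libraries of a group differed beyond sampling noise (chi-square per degree of freedom 7.68 to 28.0 over 12 pairs), so none was a copy.

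The test was limma's two-sided moderated test with a mean-variance trend (limma 3.58.1, R 4.3.3) on log2(normalized count + 1), for genes averaging 10 or more, and Benjamini-Hochberg adjustment covered all of them. Calls needed an adjusted p-value below 0.05 together with a log2 change of 0.15 or more in either direction. The comparison used 8 libraries, the exosome types 12 and the glucose test 16. Bcl2, Abca1 and Hipk2, which the study named from sequencing that included these libraries, also had exact permutation tests. Fits were tested on simulated data. Alternatives used edgeR 4.0.16, DESeq2 1.42.0, other pseudocounts, filters and normalizations, the date as a replicate block, and left-out libraries. Tables and figures used Python 3.11.15, pandas 2.3.3, numpy 2.4.6 and matplotlib 3.10.9.

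Libraries 1 to 4 of each group carry 1 of 4 dates in their titles, taken here to pair them, and what was done on these dates is not given in the sources used here. Pearson's r was taken over genes between the deviations of PBS and of BMDM-HG-exo libraries from their group means. It averaged 0.0108 for the same date (-0.0411 to 0.0808, 4 pairs) and -0.00358 for different dates (12 pairs). BMDM-NG-exo libraries were not in this check, and the date as a block moved the count between the exosome types from 2 to 22.

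Named in the text were, for either direction, the 12 strongest changes of called genes that averaged 50 or more and whose groups did not overlap, the 3 genes of the study, and of each list up to 6 called members, or the 3 with the smallest p where fewer than 2 were called. The 36 lists and the markers were written by hand, and members, lists and rules were chosen with earlier results of these data known. Results for some genes are not reported here.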

Additional observations from a re-analysis of the deposited data

Results flagged for a closer look

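In 14 of the 330 groups of 4 libraries examined, 1 library stood apart from the other 3 by a gap beyond Dixon's 95% critical value, and chance gives this in about 1 of 20 groups. In PBS the lowest libraries were those of Heg1 (45.4 normalized counts, the others 50.1 to 50.7), C5ar1 (10526, the others 10774 to 10822), Ifit2 (3017, the others 3528 to 3614), Nr1h2 (3617, the others 4039 to 4103) and mt-Nd6 (6941, the others 7849 to 8031). The highest PBS libraries that stood apart were those of Bcl2 (241, the others 181 to 187), Ccl9 (13981, the others 13073 to 13169), Gas6 (16700.4, the others 15264 to 15443) and Atp5l (1589, the others 1266 to 1292). After BMDM-HG-exo the lowest libraries were those of Il1b (42.3, the others 88.2 to 94.2), Myd88 (2629, the others 2962 to 3021) and Cat (27346, the others 29142 to 29490). The highest were those of H2-Ab1 (744, the others 591 to 610.1) and Idh3a (802, the others 739 to 742). In all of these but Nr1h2, Atp5l, mt-Nd6 and Idh3a the groups did not overlap.

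The difference between the response to BMDM-HG-exo and the response to glucose in the interferon-stimulated genes passed the direct test for all 34 genes, as reported above with the values of each response.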

How the results depend on the processing

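The count of 701 genes lay between 661 and 809 with other pseudocounts, filters, normalizations, weights or tools, and every one of the 701 that was tested kept its sign in each of these settings. With edgeR 709 genes and with DESeq2 809 passed, and limma with voom weights (671) and size factors from protein-coding genes alone (702), both chosen after seeing the data, changed little. Without the trend of the variance on the mean 26 genes passed, and 15 of the 146 called genes chosen by the naming rule and reported here were among them. The cause was not tested. Leaving out both libraries of date 2 left 451 genes, with fewer samples in the fit, and the other dates 510 to 615. Leaving out 1 library gave 563 to 795. With the date as a replicate block 760 genes passed, including 700 of the 701, the exception being Gm6209, and the block changed no call of a named gene against PBS. Between the exosome types the count was 2 in the reported fit, 22 in the paired fit with the replicate block, 1 with edgeR and 1 to 7 when 1 library was left out. For BMDM-NG-exo against PBS it was 432, then 505 with the replicate block, 445 with edgeR and 292 to 453 with 1 library left out. Medians of gene lists within 0.05 of 0 changed sign in some settings, among them oxidative phosphorylation, tricarboxylic acid cycle, mitochondrially encoded, ribosomal protein and lipid oxidation genes, so no direction is read from them. Genes of low count set the limit of precision: of the 3596 genes with the lowest means 20 were called, and of the 3596 with the highest means 391. Of the named genes that passed, 109 of 146 did so in all 8 fits with 1 library left out.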
